A study of Mus musculus with 2 samples.

Results

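The genes described here are the 10 that form the D cyclin, CDK4/6 and RB pathway of G1 entry in G1E cells, among 43346 annotated genes in the deposited tables. They are the D cyclins Ccnd1, Ccnd2 and Ccnd3, the kinases Cdk4 and Cdk6, the inhibitors Cdkn1b (p27) and Cdkn2c (p18), and the pocket proteins Rb1, Rbl1 (p107) and Rbl2 (p130). The rule takes them by name and uses no measured value, although the list was drawn up with earlier results of these data known. All 10 had a row in both libraries. G1E is an immortalised mouse cell line, labelled as a Gata1- erythroid progenitor from a male at the postnatal stage with an age of 0 day. Poly(A) RNA was sequenced from 1 end in 2 libraries, biological replicates 1 and 2 of the same biosample, with no treatment and no second genotype. The study therefore holds 1 group and no contrast between conditions. Since both libraries name 1 biosample, the spread between them may be technical.

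D cyclins are short-lived proteins made in response to growth signals. They bind and activate CDK4 and CDK6, which phosphorylate RB1 and its relatives RBL1 and RBL2. Pocket proteins hold E2F transcription factors in check, and their phosphorylation releases E2F and opens the way to S phase. CDKN2C, an INK4 protein, binds CDK4 and CDK6 directly, whereas CDKN1B binds whole cyclin-CDK complexes. In red cell precursors this machinery drives the divisions that precede maturation, and loss of GATA1 holds G1E cells in a dividing progenitor state.

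The gene tables summed to 31645051 expected counts in replicate 1 and 56983558 in replicate 2. The difference between transcript length and effective length corresponded to reads of 36 and 55 nt. Protein-coding genes held 84.4% of TPM in replicate 1 and 75.1% in replicate 2. Read length goes with replicate number, so for ratios and transcript shares that differ between libraries the 2 cannot be told apart. Values are in TPM, the abundance unit of the tables, which divides counts by the length of the transcripts that the reads were assigned to. All 10 erythroid progenitor markers reached 1 TPM in each library, led by Gfi1b, Gata2 and Zfpm1. None of 10 markers of other blood cells reached 1 TPM in both libraries, with Elane and Mcpt8 at 0. Their summed levels were 3 and 1.36 TPM in replicates 1 and 2, of which Itgam gave 1.31 and 0.94 TPM. None of 9 markers of other tissues reached 1 TPM in either library, with Ttr at 0 and summed levels of 2.1 and 0.14 TPM. Against the label male, none of 4 Y-linked genes reached 1 TPM, and the highest value was 0.19. Gata1 itself was read at 88.2 and 61.4 TPM. A transcript level does not check a Gata1- label, since the tables do not show which part of the gene was read.

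The D cyclins were represented by Ccnd3 and Ccnd2, with Ccnd1 near 0. Each carries near the start of its coding sequence the codons of the LxCxE motif, by which D cyclins contact the RB pocket. The first 45 coding bases are shown to compare the 3 genes, from GENCODE M21 transcripts, with those codons in capitals.
Ccnd1: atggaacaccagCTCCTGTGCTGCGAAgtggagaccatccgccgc
Ccnd2: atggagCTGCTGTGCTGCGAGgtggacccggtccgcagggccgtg
Ccnd3: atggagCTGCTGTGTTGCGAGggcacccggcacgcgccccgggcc
The motif covers codons 5 to 9 of the 295 codons of Ccnd1, and codons 3 to 7 of the 289 of Ccnd2 and of the 292 of Ccnd3. The longest exact run shared by the reference transcripts of any 2 of the 10 genes was 23 bases, between Cdk6 and Cdkn1b. Between Ccnd1 and Ccnd2 it was 20 bases. Both are shorter than a read, so a read from these transcripts without mismatches can match only 1 of the 10 genes.

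Ccnd3 (chr17:47505051-47599691, plus strand, GRCm38), the D cyclin most tied to erythroid division number, had 353.3 TPM in the first replicate and 339.2 TPM in the other, a mean of 346.3 ± 9.93 TPM (SD, n = 2). Ccnd2 (chr6:127125162-127152193, minus strand), induced by cytokine signalling in blood cells, was at 248.1 and 188.3 TPM, a mean of 218.2 ± 42.3 TPM (SD, n = 2). Both lay above the 97th percentile of protein-coding genes in each library, at 98.4 and 98.6 for Ccnd3 and 97.5 and 97.2 for Ccnd2. Ccnd1 (chr7:144929931-144939925, minus strand), the D cyclin of many epithelial and mesenchymal cells, was at 0.32 and 0.19 TPM from 28 and 32 counts. Its 95% Poisson intervals, which cover counting error only, were 0.213 to 0.464 TPM and 0.13 to 0.267 TPM. Ccnd1 stayed under 1 TPM in both libraries, at a level far below the other D cyclins. Of its 36-base words, 27.2% also occur on the opposite strand in LTO1, at 9.45 and 12.7 TPM. Whether its few reads come from Ccnd1 itself was not tested.

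Differences between genes were taken within each library as log2(TPM + 1) and set against 1.07, a bound from the spread between the libraries. That bound is the 95% normal range of a mean difference with the pooled SD of 0.546, over 9118 expressed protein-coding genes. A pair is called apart only where the sign is shared by both libraries and the mean passes the bound. No test was run on these differences, since an exact two-sided sign-flip test over 2 libraries cannot give a p below 0.5. Ccnd2 exceeded Ccnd1 by 7.44 ± 0.17 (SD, n = 2) on this scale and the genes were apart. Ccnd3 exceeded Ccnd2 by 0.68 ± 0.24, with 0.51 in replicate 1 and 0.85 in replicate 2, and the genes were not apart. As shares of the summed TPM of the 3 D cyclins, Ccnd3 took 58.7% and 64.3%, Ccnd2 took 41.2% and 35.7%, and Ccnd1 took 0.0532% and 0.036%. Ccnd2 had more reads than Ccnd3, with 32828 and 48204 counts against 14217 and 18925, on a transcript that is longer. With a fixed length for each gene, that of its longest complete coding transcript, Ccnd3 took 54.1% and 51.8% of the family.

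Ccnd3 has start sites 88416 bases apart, and nearly all of its TPM was assigned to the downstream one or to partial models beyond it. The RefSeq windows of 250 bases before to 50 after each start are shown because the transcript shares separate them. Capitals mark GGGCGG on either strand, the GC box bound by SP and KLF factors.
Ccnd3 upstream start, chr17:47504801-47505100, plus strand: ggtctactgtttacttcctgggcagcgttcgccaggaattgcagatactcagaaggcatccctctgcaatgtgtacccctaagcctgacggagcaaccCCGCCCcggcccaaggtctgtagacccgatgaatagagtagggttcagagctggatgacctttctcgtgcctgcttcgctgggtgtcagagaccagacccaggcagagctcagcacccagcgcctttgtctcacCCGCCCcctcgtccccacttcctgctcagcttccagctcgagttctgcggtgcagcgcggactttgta
Ccnd3 downstream start, chr17:47593217-47593516, plus strand: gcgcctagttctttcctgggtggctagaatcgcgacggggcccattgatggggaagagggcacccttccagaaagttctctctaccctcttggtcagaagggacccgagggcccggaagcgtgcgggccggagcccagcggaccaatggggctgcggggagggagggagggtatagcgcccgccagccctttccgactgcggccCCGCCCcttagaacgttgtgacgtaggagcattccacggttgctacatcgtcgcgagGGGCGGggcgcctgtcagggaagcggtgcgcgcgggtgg
Transcripts starting within 500 bases of the downstream start took 79.9% of Ccnd3 TPM in replicate 1 and 47.5% in replicate 2. Those within 500 bases of the upstream start, 13 models, took 4.23% and 5.69%. The upstream share was low in both libraries. The remaining 15.9% and 46.9% went to 5 models that start elsewhere, chiefly Ccnd3-210, an incomplete coding model of 464 nt with 11.5% and 39% of the gene. All 464 bases of Ccnd3-210 lie in exons of complete coding transcripts, and the model begins 1289 bases past the downstream RefSeq start. Whether RNA starts there was not tested.

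The leading transcript, Ccnd3-205 (chr17:47593470-47599689), starts 3 bases from the RefSeq start and held 78.6% and 46.6% of Ccnd3 TPM. The upstream transcript Ccnd3-201 joins its exon 2 to the base just before the same start codon. The 15 bases on each side of that point are shown to mark what separates the forms, with the shared part in capitals.
Ccnd3-205, within its first exon: cgtgagccatcgcagGATGGAGCTGCTGTG
Ccnd3-201, from exon 2 to exon 3: agaatgatggcagtgGATGGAGCTGCTGTG
The capitals are identical and the lower-case letters are not. Around this point, only reads over the sequence before the start codon can tell these forms apart. At the other end, Ccnd3-205 stops at 47599689 and Ccnd3-201 at 47599691. Ccnd3-201 held 2.26% and 4.49% of the gene's TPM, on 366.2 and 1343 counts. Ccnd3-201 was named after its value was seen.

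In TPM over all models Cdk4 was the highest of the 10 genes, and Cdk6 was far below it. Cdk4 (chr10:127063534-127067920, plus strand) was at 1162 and 844 TPM, a mean of 1003 ± 225 TPM (SD, n = 2), at percentiles 99.5 and 99.4 of protein-coding genes. Cdk6 (chr5:3341485-3531008, plus strand) was at 56.7 and 23.8 TPM, a mean of 40.3 ± 23.3 TPM. Cdk6 was high in replicate 1 and low in replicate 2, and neither value came near those of Cdk4. Cdk4 exceeded Cdk6 by 4.71 ± 0.54 in log2(TPM + 1) and the genes were apart. Cdk4 made up 95.4% and 97.3% of their summed TPM.

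The size of the Cdk4 lead depends on transcript length. Counts were 17310 and 26387 for Cdk4 against 4901 and 3605 for Cdk6. The effective length used for Cdk4 was only 638 and 689 nt, whereas its longest complete coding transcript in the tables is 2053 nt long. A shorter complete coding model, Cdk4-202, is 714 nt long. With fixed lengths, rescaled over protein-coding genes, Cdk4 was at 640.1 and 524.1 and Cdk6 at 98.8 and 38.9. The difference was then 3.20 ± 0.73 and still past its bound of 1.02. With only transcripts annotated as coding, Cdk4 was at 127.8 and 130 TPM, and the difference was 1.78 ± 0.88. Cdk4 was then below Ccnd3, at 347.9 and 335.4 TPM, and Ccnd2, at 248.1 and 188.3 TPM, so its lead over the D cyclins reversed. Ccnd2 also had more counts than Cdk4 in both libraries. Both alternatives were chosen after the data were seen.

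The short length comes from the models that took the reads. Cdk4-209 (chr10:127066076-127067235), a retained-intron model of 468 nt, held 59.2% and 43% of Cdk4 TPM. Of its bases, 443 lie in exons of complete coding transcripts and 25 outside them. Cdk4-208, annotated for nonsense-mediated decay, held 16.1% and 28.9%, and all its 924 bases lie in such exons. Cdk4-206, a second retained-intron model, held 12.4% and 8.63%, with 16 of 574 bases outside. Cdk4-205, an incomplete coding model, held 6.13% and 10.4%. Complete coding models held 4.45% and 4.2%. Nearly all sequence of these partial models is therefore mRNA exon sequence, and reads from it cannot by sequence be told from the coding mRNA. Whether the partial RNAs exist in G1E cells was not tested.

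**Figure D1:**
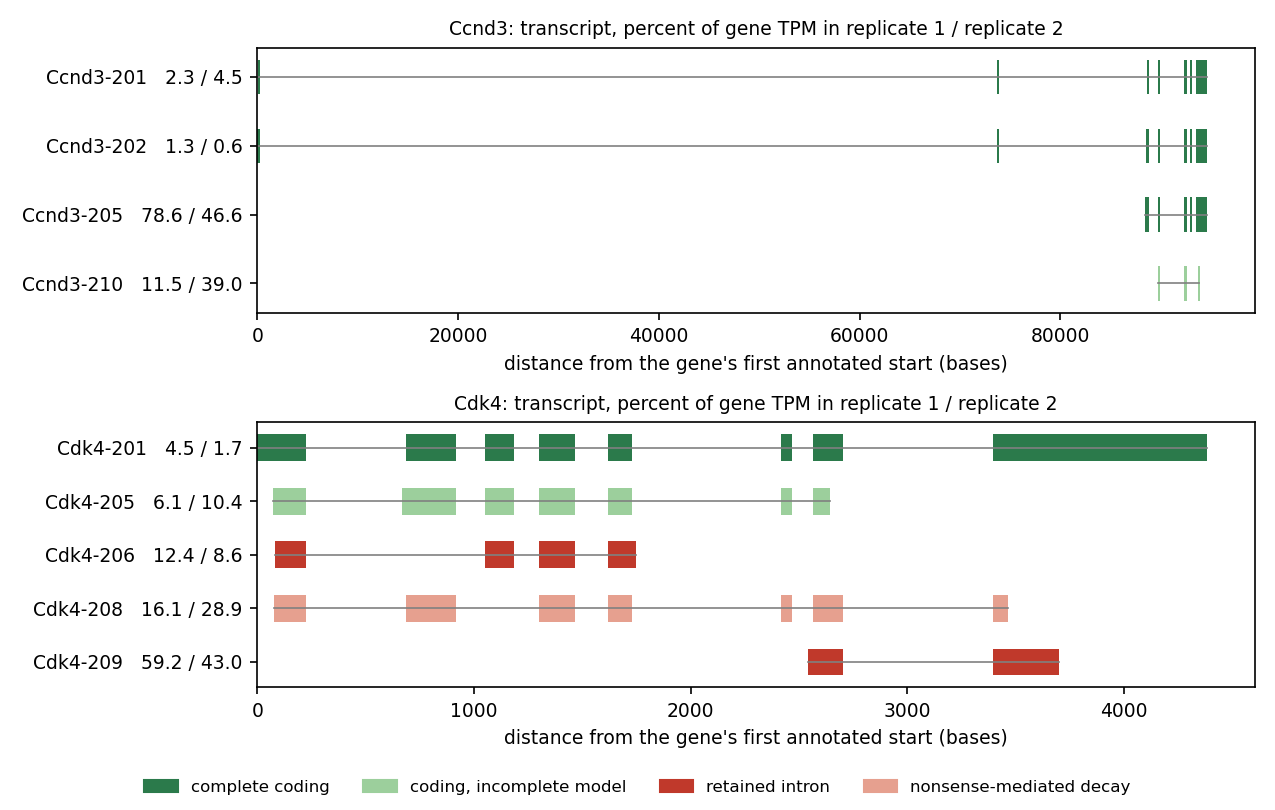
Exon maps of Ccnd3 (top) and Cdk4 (bottom), with distance from the gene's first annotated start in bases on the x axis and 1 transcript per line. The percent of gene TPM in replicates 1 and 2 stands beside each name, and colours give the annotated kind. The Ccnd3 models at the upstream start hold small shares, and Cdk4-209 covers 2 exon stretches late in the gene and stops before the gene's end.

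The Cdk4 promoter is shown because Cdk4 led the 10 genes in TPM over all models, though not over coding models alone, and Myc, a known activator of Cdk4, was at 530.7 and 280.9 TPM. Capitals mark CACGTG, the E-box bound by MYC with MAX. The letters are the same on both strands.
Cdk4, chr10:127063285-127063584, plus strand: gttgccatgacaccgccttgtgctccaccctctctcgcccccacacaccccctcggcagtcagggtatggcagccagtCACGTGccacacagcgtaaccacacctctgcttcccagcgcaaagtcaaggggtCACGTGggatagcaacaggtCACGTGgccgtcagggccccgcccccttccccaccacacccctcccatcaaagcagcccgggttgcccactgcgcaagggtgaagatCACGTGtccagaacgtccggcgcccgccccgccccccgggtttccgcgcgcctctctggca
The window held 4 matches, at 172, 118, 98 and 11 bases before the start. At least 1 match was present in 7.15% of all 32851 windows of this length, and 4 or more in 8 windows, 0.0243%. The cut of 4 was set by the Cdk4 window itself, after 9 motifs were searched. The share of 0.0243% is therefore not an independent measure of rarity. A match is a string of letters and does not show binding in these cells.

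Of the inhibitors, Cdkn2c was the higher of the pair. Cdkn2c (chr4:109660876-109667189, minus strand) was at 33.1 and 28.5 TPM, a mean of 30.8 ± 3.27 TPM (SD, n = 2). Cdkn1b (chr6:134920401-134925513, plus strand) was at 13 and 12.4 TPM, a mean of 12.7 ± 0.43 TPM. The values of each gene were close between libraries, and the ranges did not overlap. Cdkn2c exceeded Cdkn1b by 1.21 ± 0.1 in log2(TPM + 1) and the genes were apart. With fixed lengths the difference was 1.75 ± 0.14. The fixed length of Cdkn1b was 4552 nt, that of its less abundant form, against effective lengths of 2698 and 2853 nt. That of Cdkn2c was 2471 nt, the length of its leading form. The wider gap therefore depends on the length chosen. Over the 7 INK4 and CIP/KIP genes, Cdkn2c took 15.1% and 17.2% of summed TPM and Cdkn1b took 5.95% and 7.48%. Cdkn1a (p21), a p53 target that also binds cyclin-CDK complexes, took 74.5% and 70.2%, at 163.2 and 116.7 TPM. Cdkn2d (p19), the other INK4 gene above 1 TPM, was at 9.63 and 8.15 TPM. Cdkn2a, Cdkn2b and Cdkn1c, the sources of p16 and ARF, p15 and p57, were each under 1 TPM in both libraries, at most at 0.37.

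Both inhibitor genes have only complete coding transcripts in the annotation, so none of their TPM could go to another kind. Cdkn1b-201, with 3 exons, held 84.3% and 76.2% of Cdkn1b, and Cdkn1b-202, with 2 exons and the same ends, held 15.8% and 23.8%. Cdkn2c-202, from an upstream start, held 80% and 83.7%, and Cdkn2c-201, from a start further down, held 20% and 16.3%. The upstream form led in both libraries, and its share differed by less than 4 points between them. The windows at the RefSeq starts, 1384 bases apart, are shown because these forms separate them, with GGGCGG on either strand in capitals.
Cdkn2c upstream start, chr4:109666707-109667006, minus strand: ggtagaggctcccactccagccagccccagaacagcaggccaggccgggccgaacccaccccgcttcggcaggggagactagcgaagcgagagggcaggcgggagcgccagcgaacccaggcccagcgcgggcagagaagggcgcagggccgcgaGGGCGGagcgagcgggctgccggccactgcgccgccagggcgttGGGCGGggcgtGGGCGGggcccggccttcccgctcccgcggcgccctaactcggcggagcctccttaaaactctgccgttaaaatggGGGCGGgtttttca
Cdkn2c downstream start, chr4:109665323-109665622, minus strand: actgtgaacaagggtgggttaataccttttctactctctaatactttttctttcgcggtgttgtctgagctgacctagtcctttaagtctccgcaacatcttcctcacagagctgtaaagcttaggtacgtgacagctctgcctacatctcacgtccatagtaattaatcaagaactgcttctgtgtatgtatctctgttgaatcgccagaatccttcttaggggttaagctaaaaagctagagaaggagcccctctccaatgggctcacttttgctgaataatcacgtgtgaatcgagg
The upstream window has a GC content of 73.3% and 4 GC boxes, and the downstream window has 44% and none. Cdkn2c-202 starts 433 bases before the upstream RefSeq start, and Cdkn2c-201 starts at the downstream one.

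The pocket proteins were below the expressed D cyclins and Cdk4 in both libraries, and their own order differed between libraries. Rb1 (chr14:73183673-73325822, minus strand) was at 11.9 and 17.7 TPM, a mean of 14.8 ± 4.12 TPM (SD, n = 2). Rbl1 (chr2:157145893-157204534, minus strand), which rises with S phase entry in many cells, was at 17.1 and 19.7 TPM, a mean of 18.4 ± 1.82 TPM. Rbl2 (chr8:91070057-91123844, plus strand), the pocket protein of resting cells, was at 34.9 and 8.61 TPM, a mean of 21.7 ± 18.6 TPM. Rbl2 was the highest of the 3 in replicate 1 and the lowest in replicate 2. Rbl1 exceeded Rb1 by 0.32 ± 0.24 in log2(TPM + 1), inside the bound, so they were not apart. Rb1 minus Rbl2 was -1.48 in replicate 1 and 0.96 in replicate 2, so these 2 libraries give no order for the pair. With fixed lengths Rb1 was at 12.2 and 26.3, Rbl1 at 24.8 and 29.6, and Rbl2 at 22.3 and 13.6. Rbl2 was then below Rbl1 in both libraries, and Rb1 and Rbl2 still changed places. All 3 genes lay between percentiles 67.5 and 83.5 of protein-coding genes. As shares of their summed TPM, Rb1 took 18.6% and 38.5%, Rbl1 26.8% and 42.8%, and Rbl2 54.6% and 18.7%.

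The Rbl2 difference between the libraries goes with a change in assigned transcripts. Counts were 1464 and 1668, but the effective length was 1797 nt in replicate 1 and 4272 nt in replicate 2, a 2.38-fold difference. Rbl2-201, the complete coding transcript, held 25.3% and 85.3% of TPM, at 8.83 and 7.35 TPM. Its level thus differed little between libraries. Retained-intron models held 74.7% and 14.7% of Rbl2 TPM but 31.1% and 2.7% of its counts. Rbl2-207, the leading one in replicate 1, held 34.9% and 8.31% on 223.7 and 24.9 counts. Of its 821 bases, 275 lie outside the complete coding exons. Of its 36-base words, 75.1% also occur in another gene, all on the opposite strand, where Aktip and Gm45464 overlap Rbl2. Aktip was at 6.54 and 4.38 TPM. The part of such reads in the Rbl2 values was not tested.

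Rb1 and Rbl1 also gave part of their TPM to retained-intron models. Rb1-201, the complete coding transcript, held 50.3% and 79.5% of Rb1, at 5.98 and 14.1 TPM. Rb1-204, a retained-intron model, held 40.4% and 11.6% on only 102.1 and 83.3 counts. Rbl1-201 held 67.1% and 68.4% of Rbl1. The retained-intron models Rbl1-202 and Rbl1-204 changed places, at 6.83% and 26.2% against 22.7% and 4.61%. The coding share of Rbl1 was thus close between libraries, unlike those of Rb1 and Rbl2. The Rbl1 window is shown because Rbl1 is itself a known E2F target, with the E2F site TTTCGCGC in capitals.
Rbl1, chr2:157204485-157204784, minus strand: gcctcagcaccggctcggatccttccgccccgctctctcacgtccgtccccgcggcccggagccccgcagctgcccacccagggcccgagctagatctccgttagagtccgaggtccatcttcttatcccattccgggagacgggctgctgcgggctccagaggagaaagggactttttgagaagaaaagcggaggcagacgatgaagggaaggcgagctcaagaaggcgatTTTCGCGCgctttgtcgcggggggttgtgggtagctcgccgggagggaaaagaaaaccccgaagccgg
This site starts 18 bases before the start and occurs in 0.323% of all windows. Windows were present for 7 of the 10 genes, 9 windows in all, and 9 motifs were searched on both strands. The E2F sites TTTGGCGC and TTTCCCGC, in 0.514% and 1.07% of all windows, were in none of the 9. The GC box GGGCGG was in 7 of 9 and in 35.7% of all windows, and CACGTG in 3 of 9. The KLF box CCACACCC was in 1 of 9, that of Cdk4, and in 3.56% of all. The GATA sites AGATAA and TGATAA, in 11.2% and 9.05% of all, were in none. The cell cycle homology element TTTGAA was in 1 of 9, that of Rbl2, and in 17.9% of all. The GC box letters can overlap other motifs, and no match in a window says nothing about the factor.

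In the order of mean TPM, Cdk4 was followed by Ccnd3, Ccnd2, Cdk6, Cdkn2c, Rbl2, Rbl1, Rb1, Cdkn1b and Ccnd1. In this order 3 steps passed the bound, namely Cdk4 over Ccnd3 by 1.51, Ccnd2 over Cdk6 by 2.52, and Cdkn1b over Ccnd1 by 3.45. No neighbours from Cdk6 to Cdkn1b were apart. With fixed lengths the step from Cdk4 to Ccnd3 shrank to 0.42, inside the bound, whereas the other steps past the bound stayed at 2.60 and 3.36. With only coding transcripts Cdk4 was below Ccnd3 and Ccnd2, with means of 128.9, 341.7 and 218.2 TPM. In all, 9 of the 10 genes reached 1 TPM in each library, against 42.5% of the 21474 protein-coding genes in the tables.

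**Figure D2:**
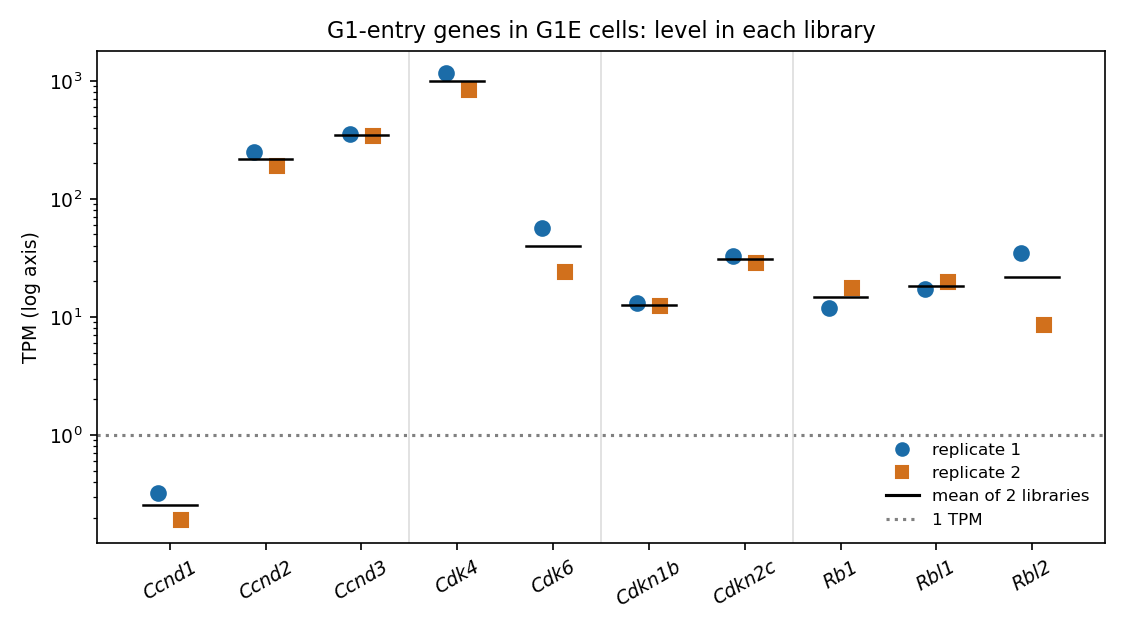
TPM over all models of the 10 genes on a log axis, with circles for replicate 1, squares for replicate 2 and a bar for the mean. Cdk4 sits at 844 TPM or more and Ccnd1 under 1 TPM, while Rbl2 and Cdk6 have the widest gaps between libraries.

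Between the libraries, 2 of the 10 genes were 2-fold or more apart in TMM-scaled counts, against 29.5% of 12414 genes with at least 50 counts. Cdk6 had a log2 ratio of replicate 2 over replicate 1 of -1.35. It was the only one of the 10 that was 2-fold higher in replicate 1, as 13.2% of all tested genes were. Rb1 had a ratio of 1.10, from 758 and 3046 counts. After a trend on GC content was subtracted, the Rb1 ratio was 0.14 and that of Cdk6 -1.49, so only Cdk6 remained past 2-fold. Rb1 has a GC content of 41.5%, the lowest of the 10. The other 8 ratios lay between -0.72 and 0.25. In TPM, Cdk6 and Rbl2 were 2-fold apart among the 9 expressed genes, at 2.38-fold and 4.05-fold, against 16.7% of expressed protein-coding genes. These shares are near the background, so the 10 genes do not stand apart from other genes in this respect. With 1 library on each side there is no replicate check of a ratio. The 95% Poisson intervals of TPM, which cover counting error only, ran for Cdkn1b from 12.2 to 14 TPM in replicate 1 and from 11.8 to 13.1 TPM in replicate 2. For Cdk6 they ran from 55.1 to 58.3 TPM and from 23 to 24.6 TPM.

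TPM divides counts by effective length, so the TPM and count ratios part by construction where effective length moves. Among the 9 expressed genes, these ratios parted most where effective length moved. Effective length differed by 1.3-fold or more for 3 of the 9 expressed genes, against 14.6% of expressed protein-coding genes. These were Rbl2 at 2.38-fold, Ccnd3 at 1.4-fold and Rb1 at 1.39-fold. Ccnd3 had a ratio of -0.06 in log2(TPM + 1) and -0.49 in scaled counts. Rbl2 had -1.90 and -0.72. DESeq2 size factors or TMM without a filter moved every ratio up by 0.25, the shift of the median gene, and under them Cdkn2c was at 0.10 and 0.11 in place of -0.14.

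**Figure D3:**
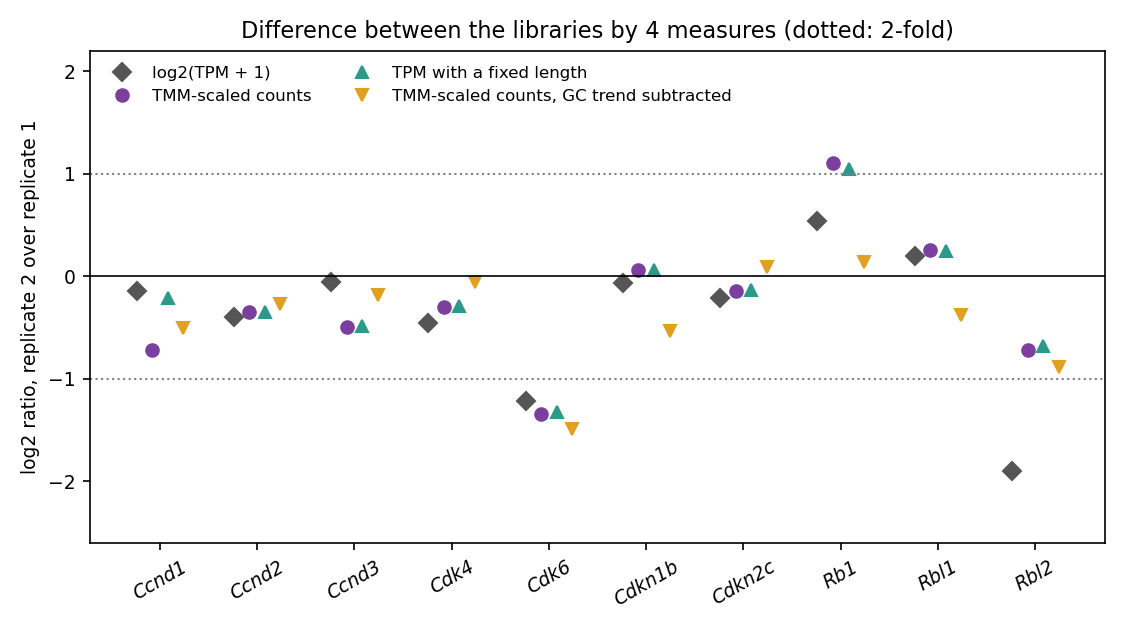
The log2 ratio of replicate 2 over replicate 1 for the 10 genes by 4 measures, with 0 as a solid line and 2-fold as dotted lines. Cdk6 lies below -1 by all 4, Rbl2 only in TPM, and Rb1 falls to 0.14 when the GC trend is subtracted.

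Of the 10 genes, 8 are expressed and have more than 1 annotated transcript, and for 1 of these 8, Rbl2, the leading transcript differed between libraries. This was so for 30.7% of expressed protein-coding genes with several transcripts. For 1 of 8, Cdk4, the leading transcript was not annotated as coding in either library, against 10.5% of such genes. Ccnd2, Cdk6, Cdkn1b and Cdkn2c have only complete coding models in the annotation, so their 100% share in both libraries was fixed in advance. Within Cdk6, the shorter Cdk6-201 was at 0% in replicate 1 and 26.9% in replicate 2, and none of its 36-base words is absent from the M21 sequence of Cdk6-202.

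**Figure D4:**
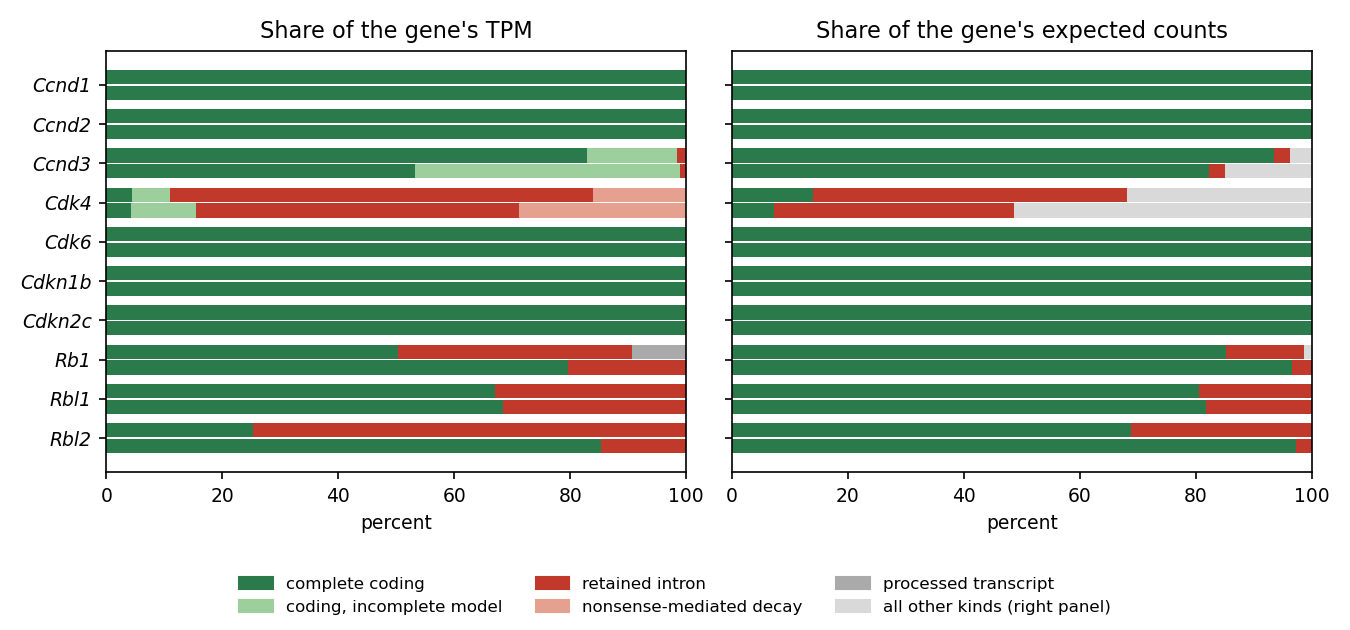
Percent of each gene's TPM (left) and expected counts (right) by annotated kind of transcript, with replicate 1 above replicate 2 for each gene. Cdk4 has the smallest complete coding share, at 4.45% and 4.2% of TPM, and for Rbl2 the retained-intron share of counts, 31.1% and 2.7%, is far below its share of TPM.

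Neighbouring genes overlap several of the 10 on the opposite strand, and whether strand was used in counting is not given in the sources used here. Reads from an overlapped part may then come from either gene. For Ccnd1, 27.2% of 36-base words also occur in LTO1, at 9.45 and 12.7 TPM, far above Ccnd1 itself. Over all models of a gene, on either strand, the share was 19.9% for Rbl2, 18.5% for Cdk4 and 12.9% for Rb1. By model it differed widely. It was 30.5% for Cdk4-201, but 1.125% for Cdk4-208, 1.09% for Cdk4-205 and 0% for Cdk4-209 and Cdk4-206. For Rbl2-201 it was 12.8%, and for Rb1-201 1.56%. The main partner of Cdk4, Tspan31, was at 29.7 and 35 TPM, and that of Rb1, Rcbtb2, at 15.6 and 28 TPM. Bysl, which overlaps the end of Ccnd3, was at 35.4 and 32.7 TPM. Over all Ccnd3 models, 7.17% of words occur in other genes, Bysl and Ccnd3-ps among them. For the leading model Ccnd3-205 the share was 29.45%, and for Ccnd3-210 it was 24%. Ccnd2 shared 5.39%, Cdk6 2.61% and Rbl1 0.235%. The Ccnd2 and Cdk6 shares rest on M21 sequences longer than those the reads were counted on, at 6330 against 5701 nt for Ccnd2-201 and 11525 against 3735 nt for Cdk6-202. No word was shared by other genes for the inhibitors, Cdkn1b and Cdkn2c. The part of these overlaps in the measured levels was not tested.

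The rest of the pathway was broadly present. All 10 E2F and DP genes reached 1 TPM in each library. Their median was 25.9 TPM, and the highest was Tfdp1, the common E2F partner, at 292.1 and 190.5 TPM. E2f4, the main E2F bound to RBL1 and RBL2, was at 261.7 and 175.8 TPM, and E2f1, an activator bound by RB1, at 69.3 and 52.6 TPM. All 16 E2F target genes passed, with a median of 156.9 TPM. Pcna, the sliding clamp of DNA polymerase, was at 463.5 and 498.3 TPM, and the replicative helicase genes Mcm3 and Mcm5 had means of 414.1 and 364.4 TPM. For comparison, the median of the 3 pocket protein genes was 18.4 TPM.

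Of the later cyclins, CDKs and CDC25 genes, 10 of 11 passed, led by Ccnb1, Cdk1 and Ccna2 with means of 175.3, 142.1 and 139.4 TPM, and Ccna1, the germ line cyclin A, was at 0.2 and 0 TPM. All 6 genes of the MuvB core with B-MYB passed, and Mybl2, which encodes B-MYB, had a mean of 159.3 TPM. All 4 genes of the CDK-activating kinase and CDC37 passed. Cdc37, the chaperone that delivers CDK4, was at 160.1 and 162.7 TPM. All 11 genes for turnover of D cyclins and p27 passed, with a median of 28.6 TPM, and Cks1b, the cofactor of p27 degradation, was at 236.2 and 215 TPM. All 7 RB-binding corepressor genes passed, led by Rbbp7 at 104 and 322.9 TPM, a gene far higher in replicate 2. Of 13 upstream regulators, 12 passed. Stat5a, which carries cytokine signals, was at 187.9 and 144.6 TPM, and Kit, the stem cell factor receptor, at 191.2 and 139.9 TPM. Foxo1, an activator of Cdkn1b in other cells, was at 0.27 and 0.01 TPM. Its relatives in the same list were higher, with Foxo3 at 68.7 and 25.8 TPM and Foxo4 at 20.9 and 28.8 TPM. Each of these lists except the other CDK inhibitors, with 2 of 5, was above the background of 42.5%, which mixes genes of all tissues.

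**Figure D5:**
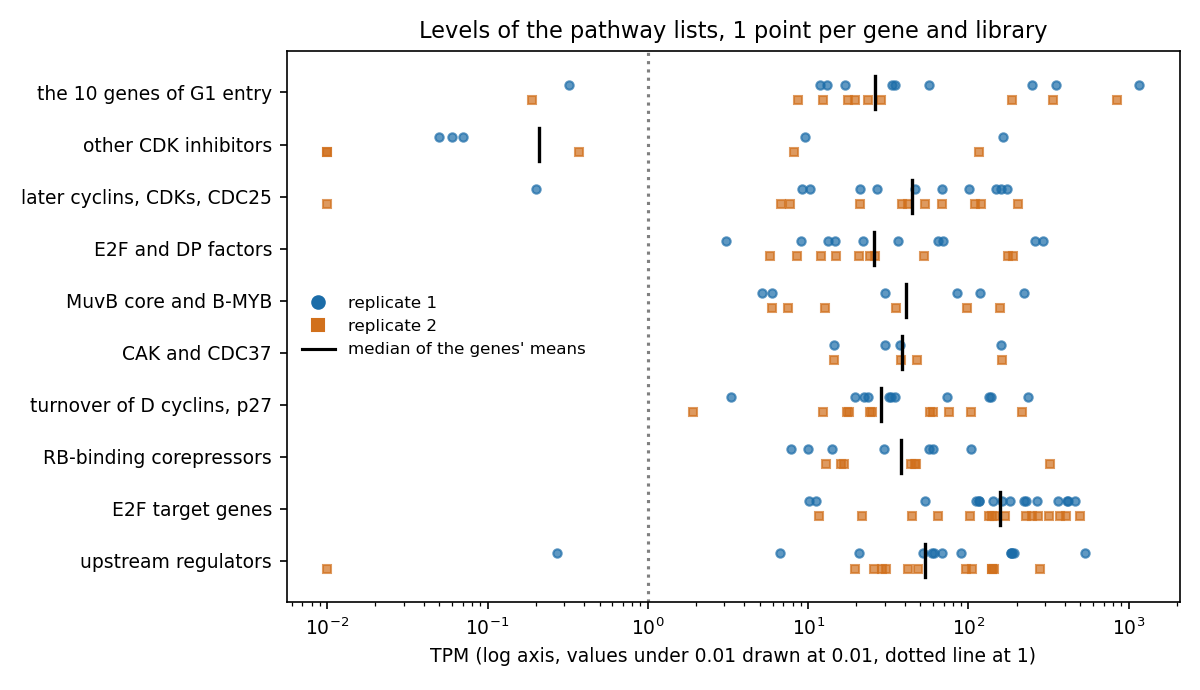
TPM of each gene of the pathway lists on a log axis, with circles for replicate 1, squares for replicate 2 and a bar for the median of the genes' means. The E2F target genes have the highest median, 156.9 TPM, and the other CDK inhibitors the lowest, 0.21 TPM.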

How the data were processed

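Poly(A) RNA-seq of the mouse line G1E was deposited as 1 gene table and 1 transcript table for each of 2 libraries on mm10. Aligner, quantifier and settings: not given in the sources used here. Tables made by the authors give expected counts, TPM, FPKM and posterior mean TPM per gene, and the percent of a gene's TPM per transcript (per the file headers). The authors' tables also give bounds of each TPM, a signal that was not used in any result. Names and positions came from GENCODE M21 (GRCm38), matched on the gene ID without its version. Of 43346 genes, 42462 matched. Entries that name no gene held 0.0363% and 0.00942% of counts and stayed out of scaling. Ratios used rounded expected counts, edgeR 4.0.16 TMM factors over 12457 genes, and 0.5 added. The scaling was tested on simulated data. Differences of log2(TPM + 1) were computed per library. Fixed-length values divide counts by the effective length of the gene's longest complete coding transcript with a CCDS entry. Promoter windows came from the RefSeq table (GRCm38.p6), and 54 of 56 transcripts of the 10 genes had the same length in M21 as in the tables, the exceptions being Ccnd2-201 and Cdk6-202. The 10 genes and the lists were chosen with earlier results of these data known. Named were the 10 genes, up to 3 genes of highest mean and each gene under 1 TPM in both libraries of each list (marker and Y-linked genes mostly as groups), and transcripts with 10% or more of their gene in a library. Foxo3, Foxo4 and Itgam were named after their values were seen. Alternatives were other pseudocounts, scalings, filters, thresholds, units and each library alone.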

Additional observations from a re-analysis of the deposited data

How the results depend on the processing

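No paired analysis was possible because there is no second group to share the replicate numbers, and differences between genes were taken within each library. Using TPM over coding genes, FPKM, posterior means or another pseudocount, 21 of 24 differences between genes moved by less than 1 SD. The 3 that moved were all Ccnd2 minus Ccnd1, at 9.28 with a pseudocount of 0.1, 7.70 with TPM rescaled over protein-coding genes and 7.12 with FPKM. FPKM and TPM over coding genes scale all genes of a library alike, so they can move a difference only through the pseudocount. The SD was that of 2 libraries, at 1.72 for Rb1 minus Rbl2, so the count of 21 is a weak check. Rb1 minus Rbl2 ranged from -1.48 to 0.96 when 1 library was left out. It was 0.18 with only coding transcripts and 0.042 with fixed lengths, so its sign is not settled. These 2 alternatives were chosen after the data were seen. With fixed lengths Ccnd3 minus Ccnd2 was 0.17, Ccnd2 minus Ccnd1 8.05, Cdk4 minus Cdk6 3.20, Cdkn2c minus Cdkn1b 1.75 and Rbl1 minus Rb1 0.57, and none changed sign. With only coding transcripts Cdk4 minus Cdk6 was 1.78, and Cdk4 was no longer the highest gene. The number of genes 2-fold apart between libraries was 1 after the GC trend was subtracted and 4 at 1.5-fold. The share over all genes was not taken at these settings. DESeq2 size factors, library totals, no filter and TPM left the number within 1.5 times the count of 2. Fixed-length shares of the inhibitor family were not run, since not every member had a usable length. Depth limits Ccnd1, at 28 and 32 counts. Having 2 libraries of 1 biosample limits every other statement.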
